A study of Mus musculus with 8 samples.

Results

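The aryl hydrocarbon receptor axis was examined here as 6 genes out of 54532 gene identifiers in the count files: the receptor Ahr, its DNA-binding partner Arnt, its repressor Ahrr, and the target genes Cyp1b1, Cyp1a1 and Tiparp. The genes were chosen from known pathway roles and because Ahrr and Cyp1b1 rose with H151 and not with SN-011 in these same libraries. That difference therefore chose the genes and is described below without a test. All 6 symbols matched an identifier. Ahr, Arnt, Ahrr, Cyp1b1 and Tiparp passed the filter on low counts (5 of 6), and the lowest count of any of these 5 in any library was 137. Cyp1a1 had 0 counts in all 8 libraries.

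Bone marrow-derived macrophages were grown for 7 days in L929-conditioned medium from the marrow of WT and Trex1-/- (Trex1-KO) C57BL/6J mice aged 6 to 8 weeks. Trex1 encodes a DNA exonuclease whose loss leaves DNA in the cytosol, where cGAS senses it and activates STING. H151 and SN-011 are inhibitors of STING. The 4 groups were WT with vehicle, Trex1-KO with vehicle, Trex1-KO with H151 and Trex1-KO with SN-011, each for 12 h and each with 2 polyA RNA-seq libraries. H151 was given at 500 nM, and the study's methods give the same dose for SN-011. DMSO was the vehicle. No WT library received either inhibitor, so all values for H151 and SN-011 are in Trex1-KO cells. The study describes the 2 libraries of a group as independent experiments. Neither it nor the labels say whether they came from separate animals, so every p-value measures the spread between these libraries. Any batch limited to the SN-011 libraries cannot be told apart from SN-011 itself.

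Ahr is a ligand-activated transcription factor of the bHLH-PAS family, which waits in the cytosol bound to the HSP90 chaperone. On binding planar aromatic compounds or tryptophan metabolites it enters the nucleus, pairs with Arnt and binds a short DNA element with the core GCGTG. Its classical targets include the cytochrome P450 genes Cyp1a1 and Cyp1b1, the ADP-ribosyltransferase gene Tiparp, which feeds back to lower receptor activity, and Ahrr, whose product competes with the receptor for Arnt. In macrophages the receptor is known as a modulator of inflammatory gene expression.

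The sequences upstream of Ahrr, Cyp1b1 and Cyp1a1 are shown because the first pair rose with H151 whereas the third, the most used reporter gene of the receptor, had no reads. They are the 250 bases before the RefSeq start site (GRCm38.p6), 5′ to 3′ on the strand of the gene, which is the minus strand for Ahrr at chr13:74292332-74292581 and Cyp1b1 at chr17:79715062-79715311 and the plus strand for Cyp1a1 at chr9:57697363-57697612. Capitals mark each GCGTG, or CACGC where it lies on the other strand.
Ahrr: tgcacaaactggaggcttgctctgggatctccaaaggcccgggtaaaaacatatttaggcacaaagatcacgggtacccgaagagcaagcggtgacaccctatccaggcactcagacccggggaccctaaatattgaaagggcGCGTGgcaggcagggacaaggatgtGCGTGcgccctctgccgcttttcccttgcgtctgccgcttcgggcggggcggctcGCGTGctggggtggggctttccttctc
Cyp1b1: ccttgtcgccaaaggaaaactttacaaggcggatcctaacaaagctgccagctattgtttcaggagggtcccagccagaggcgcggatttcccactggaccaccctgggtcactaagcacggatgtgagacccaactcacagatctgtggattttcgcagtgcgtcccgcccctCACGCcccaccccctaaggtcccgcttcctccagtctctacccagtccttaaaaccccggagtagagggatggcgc
Cyp1a1: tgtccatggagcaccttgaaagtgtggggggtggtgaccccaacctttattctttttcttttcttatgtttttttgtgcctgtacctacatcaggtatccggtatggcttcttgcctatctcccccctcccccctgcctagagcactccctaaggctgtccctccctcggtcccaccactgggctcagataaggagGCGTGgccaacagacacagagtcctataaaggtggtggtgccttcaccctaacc
The Ahrr window held 3 matches, from -107 to -103, -82 to -78 and -27 to -23 relative to the start site. The last of these also completed the longer form TNGCGTG. Cyp1b1 held 1 match, on the opposite strand from -76 to -72, and Cyp1a1 held 1 match from -54 to -50. Arnt and Tiparp held 1 match each, from -29 to -25 and, on the opposite strand, from -170 to -166. Of 32851 windows of the same length, 28.2% had at least 1 GCGTG on either strand, 2.77% had at least 3, and 4.10% had at least 1 TNGCGTG, of which every match is also a GCGTG match. Promoter sequences were matched for 5 of the 6 genes, all but Ahr. A match is a run of letters and does not show that the receptor binds there. Sequence outside these 250 bases was not searched, so the matches do not tell how many elements a gene has.

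Total counts ranged from 11845470 to 17284863 per library, so that 1 count was worth 0.0582 to 0.0849 CPM (library-size normalized counts, scaled with TMM factors between 0.973 and 1.04). Replicate libraries differed beyond counting noise. Trex1 had 0 counts in every library, WT included. All of its exonic bases overlap Atrip in the GENCODE annotation, so the genotype rests on the labels. The 8 macrophage markers were detected throughout and summed to 30092 to 32363 CPM, whereas 5 lymphocyte markers summed to at most 0.934 CPM, 4 mast cell markers to at most 1.75 CPM and 5 dendritic cell markers to at most 2.96 CPM. Most of the macrophage sum was Lyz2, at 20296 to 23079 CPM, and 3 of the 8, Fcgr1, Cd68 and Adgre1, passed the test upward in Trex1-KO against WT (log2 fold changes 1.14, 0.44 and 0.19, edgeR). The dendritic cell marker Xcr1 was also called higher, at 0.221 and 0.0678 CPM in WT and 1.21 and 0.989 in Trex1-KO. Zbtb46, the only other dendritic cell marker tested, went the other way, from 1.91 and 0.949 to 0.604 and 0.528 CPM. Its log2 fold change of -1.32 ± 0.50 was not called (adjusted p = 0.0951, edgeR). Stromal, neutrophil and endothelial or epithelial markers moved with genotype as well and are given beside the results for Ahr and Cyp1b1.

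Ahr itself (ENSMUSG00000019256, GRCm38 chromosome 12, 35497974 to 35535038, minus strand) was lower in every library of Trex1-KO cells than in WT. It measured 21.9 and 22.2 CPM in WT, 15.1 and 14.4 in Trex1-KO, 14.9 and 12.0 with H151, and 12.5 and 15.3 with SN-011. Both WT libraries lay above the other 6, and the 3 knockout groups overlapped one another. The group means were 22.0 ± 0.26, 14.8 ± 0.46, 13.5 ± 2.0 and 13.9 ± 2.0 CPM (SD, n = 2 each). Relative to WT, Ahr was lower in Trex1-KO by a log2 fold change of -0.58 ± 0.14 (SE), or 0.669-fold, with an adjusted p of 0.00899 (edgeR quasi-likelihood test, Benjamini-Hochberg over 14591 genes). The call was lost on leaving out WT replicate 2 (adjusted p 0.0565) or Trex1-KO replicate 2 (0.0528), at nearly the same fold change. With either inhibitor the fitted change from Trex1-KO was no larger than its error: -0.14 ± 0.14 for H151, with a 95% interval of -0.45 to 0.17, and -0.10 ± 0.14 for SN-011, with an interval of -0.40 to 0.21. A share of 2.06% of its exonic bases is also annotated to Gm48236.

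Arnt (ENSMUSG00000015522, chromosome 3, 95434388 to 95497240, plus strand), the partner that the receptor needs to bind DNA, was the steadiest of the detected genes. Its levels were 89.4 and 87.8 CPM in WT, 90.8 and 96.7 in Trex1-KO, 102.8 and 88.0 with H151, and 94.8 and 90.8 with SN-011. The 3 knockout groups overlapped, and the difference between Trex1-KO and WT, a log2 fold change of 0.08 ± 0.08, did not pass the test (adjusted p = 0.551, edgeR), with an interval of -0.08 to 0.25. Against Trex1-KO the log2 fold change was 0.02 ± 0.08 with H151 (interval -0.14 to 0.19) and -0.01 ± 0.08 with SN-011 (interval -0.18 to 0.15).

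Ahrr (ENSMUSG00000021575, chromosome 13, 74211118 to 74292331, minus strand), the repressor that is itself a receptor target, was set apart by the H151 libraries. It measured 16.4 and 18.3 CPM in WT, 16.1 and 14.6 in Trex1-KO, 32.0 and 32.3 with H151, and 14.9 and 11.6 with SN-011. The raw counts behind the H151 values were 393 and 481, and those in the other 6 libraries ran from 137 to 270. Both H151 libraries lay well above all others, while SN-011 overlapped Trex1-KO. H151 was 2.09-fold above Trex1-KO, a log2 fold change of 1.06 ± 0.13 (95% interval 0.79 to 1.34), and 1.85-fold above WT. SN-011 stood at -0.20 ± 0.14 against Trex1-KO (interval -0.49 to 0.10), with -0.41 without SN-011 replicate 1 and -0.04 without SN-011 replicate 2, and at -1.26 ± 0.13 against H151. These contrasts chose the gene and carry no test. The comparison that did not choose it directly, Trex1-KO against WT, gave -0.18 ± 0.13 and did not pass the test (adjusted p = 0.440, edgeR).

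Cyp1b1 (ENSMUSG00000024087, chromosome 17, 79701537 to 79715061, minus strand), a cytochrome P450 that oxidizes steroids and polycyclic aromatic compounds, had the widest range of the detected genes. It measured 108.4 and 87.3 CPM in WT, 38.3 and 31.7 in Trex1-KO, 73.7 and 60.9 with H151, and 41.4 and 34.0 with SN-011. WT lay highest, H151 between WT and the rest, and the SN-011 and Trex1-KO libraries overlapped. Cyp1b1 was lower in Trex1-KO than in WT, to 0.358-fold, a log2 fold change of -1.48 ± 0.13 with an adjusted p of 2.93e-06 (edgeR). Across the 15 alternative settings this value stayed between -1.64 and -1.34, with adjusted p-values of at most 6.5e-05. With H151 it was 1.92-fold above Trex1-KO (log2 fold change 0.94 ± 0.13, 95% interval 0.65 to 1.23) and still 0.687-fold of WT. With SN-011 the log2 fold change from Trex1-KO was 0.12 ± 0.14 (interval -0.18 to 0.42) and ranged from -0.04 without SN-011 replicate 1 to 0.26 without Trex1-KO replicate 1, and SN-011 lay at -0.82 ± 0.13 against H151. As for Ahrr, the inhibitor contrasts are descriptions, because they chose the gene. The choice used the Trex1-KO libraries too and favours genes that are low in them, so the test against WT leans toward a fall.

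**Figure D1:**
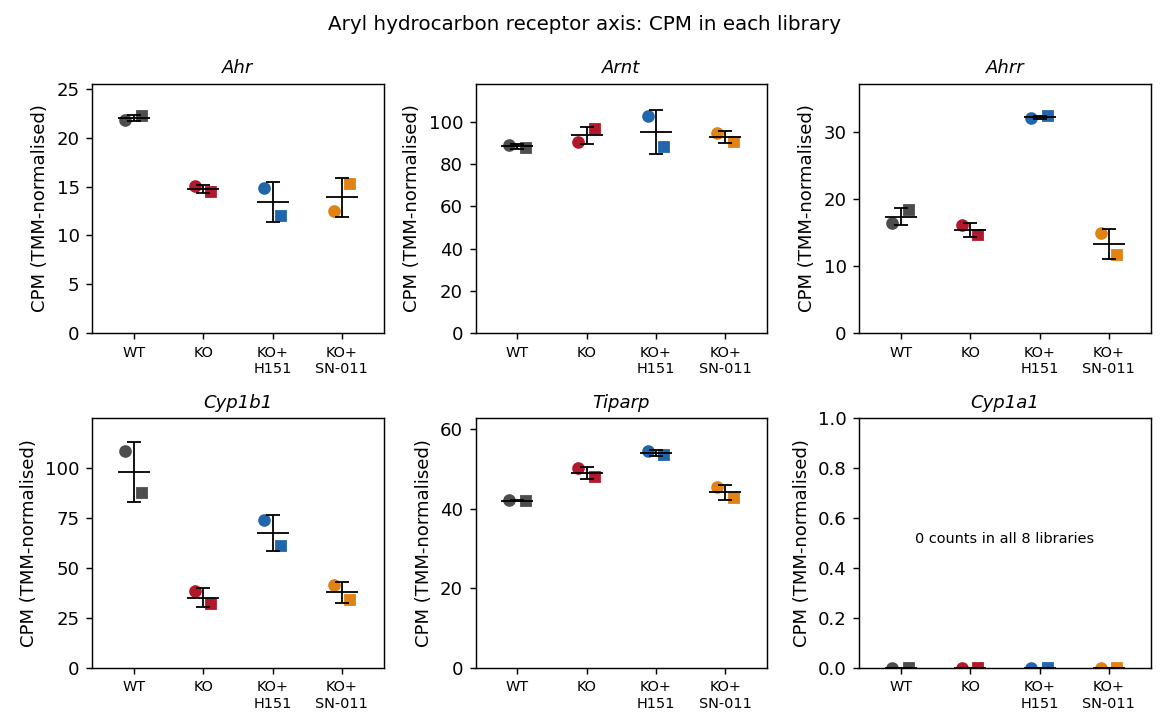
Normalized level (CPM, y axis, from 0) of the 6 genes in each library, by group on the x axis, with circles for replicate 1, squares for replicate 2, a line for the mean and bars for the SD (n = 2). The H151 libraries stand alone for Ahrr at 32.0 and 32.3 CPM, Cyp1b1 is highest in WT, Ahr is highest in WT, and Cyp1a1 is at 0 in all 8.

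Tiparp (ENSMUSG00000034640, chromosome 3, 65528410 to 65555518, plus strand) varied little. Its levels were 42.2 and 42.0 CPM in WT, 50.2 and 48.1 in Trex1-KO, 54.6 and 53.6 with H151, and 45.5 and 42.8 with SN-011. No neighbouring groups overlapped, in the order H151, Trex1-KO, SN-011 and WT, but the steps were small. Trex1-KO differed from WT by a log2 fold change of 0.22 ± 0.08, with an adjusted p of 0.0667 (edgeR), which did not pass the threshold of 0.05. Against Trex1-KO the values were 0.14 ± 0.08 with H151 (interval -0.02 to 0.30) and -0.15 ± 0.08 with SN-011 (interval -0.32 to 0.01), and SN-011 lay at -0.29 ± 0.08 against H151. A share of 5.12% of its exonic bases is also annotated to 4931440P22Rik.

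Cyp1a1 (ENSMUSG00000032315, chromosome 9, 57687928 to 57703824, plus strand), the classical and strongly inducible target of the receptor in liver, was not detected. A count of 0 allows a level of up to 0.175 to 0.255 CPM, depending on the library (3 counts, for counting error only). No fold change can be given for it.

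The genes can be compared with one another only per exonic length. In WT, Cyp1b1 was at 16.8 CPM per kb, Arnt at 11.1, Tiparp at 9.65, Ahr at 3.58 and Ahrr at 1.84. In Trex1-KO, Cyp1b1 stood at 6.00 CPM per kb, below Arnt (11.7) and Tiparp (11.3). With H151, Ahrr reached 3.41 CPM per kb and exceeded Ahr at 2.19, whereas it lay below Ahr in the other 3 groups.

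Of the 5 genes tested in Trex1-KO against WT, 2 fell (Ahr and Cyp1b1), beside 7.11% of all genes lower. None rose, beside 9.27% higher (edgeR; Tiparp alone had an unadjusted p under 0.05 with a positive change, and neither DESeq2 nor the edgeR exact test called a rise). Scaling by total counts in place of TMM moved the calls over all genes from 1352 higher and 1038 lower to 946 higher and 1598 lower, and left Ahr at -0.66 and Cyp1b1 at -1.57. In H151 against Trex1-KO, 0.384% of all genes were called higher and 1.84% lower. No call of the 5 genes is counted in this contrast, because the rise of Ahrr and Cyp1b1 in it was the reason for the choice. In SN-011 against H151, 0.158% of genes were called, all of them lower, and calls of the 5 genes are left out for the same reason. Calls in the other direction appeared in some alternatives, with 190 higher and 101 lower without H151 replicate 2 and 152 higher and 114 lower with the filter at 1 count. The Trex1-KO libraries serve in 3 of these contrasts, so the values are not independent of one another. They also served in the choice of Ahrr and Cyp1b1, which favours genes low in Trex1-KO and so a fall against WT.

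**Figure D2:**
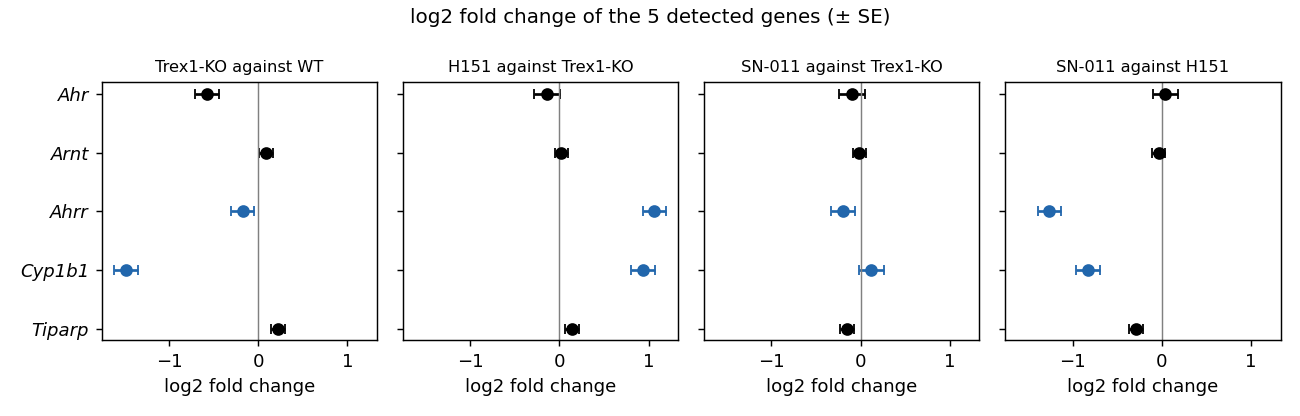
Fitted log2 fold change (x axis, ± SE) of the 5 detected genes in each of 4 contrasts, with Ahrr and Cyp1b1 in blue. In H151 against Trex1-KO, Ahrr lies at 1.06 and Cyp1b1 at 0.94, and in SN-011 against Trex1-KO all 5 lie between -0.20 and 0.12.

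The fall of Ahr and Cyp1b1 in Trex1-KO came with a fall of most of the stromal markers tested. The summed level of 8 fibroblast or stromal markers spanned 2100 to 2301 CPM among WT libraries, 863 to 1063 among those of Trex1-KO, 1107 to 1223 among those given H151 and 934 to 1123 among those given SN-011. Of the 7 that could be tested, 5 were lower in Trex1-KO (median log2 fold change -1.11), and most of the sum came from the collagen genes Col1a1, at 949 and 862 CPM in WT, and Col1a2. Dcn went the other way without a call, from 1.77 and 2.58 to 3.09 and 2.90 CPM (0.46 ± 0.27). Thy1, at -0.17 ± 0.65, was not called either, and Lum had too few counts to test. The H151 libraries lay above the Trex1-KO ones in this sum as they did for Cyp1b1, although none of the 7 was called in that contrast (edgeR; 2 higher at an unadjusted p under 0.05) and their median was 0.24. Ahrr averaged 17.4 ± 1.3 CPM in WT, against 15.4 ± 1.1 CPM in the vehicle-treated knockout (SD, n = 2 each). In bulk RNA, fewer cells of a type and less RNA per cell cannot be told apart. The part of stromal cells in the Ahr, Ahrr and Cyp1b1 values was not tested.

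Neutrophil markers moved the other way. The sum of 7 spanned 6.91 to 8.17 CPM among WT libraries, 46.9 to 64.8 among those of Trex1-KO, 57.4 to 60.4 among those given H151 and 59.9 to 76.8 among those given SN-011, and all 4 that were tested rose in Trex1-KO (median log2 fold change 3.14). The sum came mainly from S100a8, S100a9 and Ltf, and Ly6g, a defining surface marker of mature neutrophils, was at or near 0. Ltf (111019271 to 111042767) and Camp (109847379 to 109849617) lie on chromosome 9 close to Trex1 (109057933 to 109059734). S100a8 and S100a9 lie on chromosome 3. Whether the position near Trex1 bears on these values was not tested. The 5 endothelial or epithelial markers summed to 25.5 to 26.2 CPM in WT and 41.5 to 58.5 CPM in the knockout groups. The part of these cells in the Ahr and Cyp1b1 values was not tested either.

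**Figure D3:**
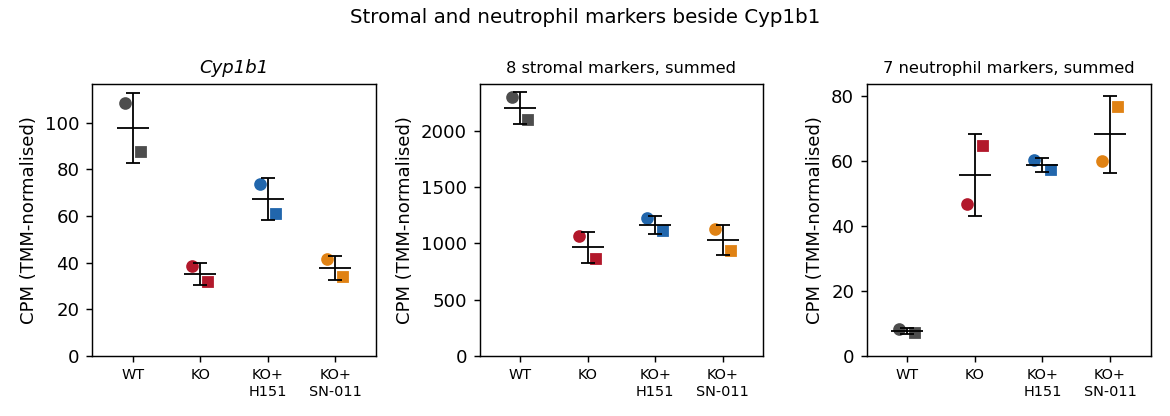
CPM (y axis, from 0) of Cyp1b1 and the summed CPM of 8 stromal and of 7 neutrophil markers in each library by group (circles replicate 1, squares replicate 2, mean and SD, n = 2). Summed stromal markers fall from 2100 to 2301 CPM in WT to between 863 and 1223 CPM in the knockout groups, and summed neutrophil markers are lowest in WT.

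The rest of the pathway was followed in 7 lists of 81 genes written from general knowledge, of which 72 had a count and 60 could be tested. In Trex1-KO against WT, 9 of 60 rose and 9 fell, beside 9.27% and 7.11% of all genes, with a median log2 fold change of -0.02, against -0.00196 over all genes. The split was 6 higher and 11 lower with total counts, 8 and 5 without WT replicate 1, 5 and 6 without WT replicate 2, 6 and 7 without Trex1-KO replicate 1, 9 and 4 without Trex1-KO replicate 2, and 7 and 6 without SN-011 replicate 1. H151 against Trex1-KO gave 0 higher and 1 lower, beside 0.384% and 1.84% of all genes (edgeR; 6 higher and 8 lower at an unadjusted p under 0.05), and DESeq2 gave the same counts. The edgeR exact test called 3, all lower. The single call, of Cdkn1a, was absent in 7 of 15 alternatives, which were the exact test, the fit of both groups alone, and leaving out either Trex1-KO replicate, H151 replicate 1 or either SN-011 replicate. A listed gene was called higher with H151 in 4 of the 15: the replicate block, the filter at 1 count, and leaving out Trex1-KO replicate 1 or H151 replicate 2. The calls numbered 2 without either WT replicate and 3 without H151 replicate 2. SN-011 against Trex1-KO gave 0 higher and 4 lower, beside 0.110% and 2.22% of all genes (edgeR; 2 higher at an unadjusted p under 0.05, and none higher by DESeq2 or the exact test). Leaving out either SN-011 library reduced the 4 to 2. SN-011 against H151 gave no call in edgeR, DESeq2 or the exact test, with 1 higher and 9 lower at an unadjusted p under 0.05. Hif1a was called lower without H151 replicate 2, and Hif1a and Cd274 with the filter at 1 count.

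Among the 5 genes of the cytosolic receptor complex, which hold the receptor ready to bind its ligand, Src alone was called. It was lower in Trex1-KO against WT, where 7.11% of all genes were called lower and 9.27% higher. This tyrosine kinase, which is released from the complex on ligand binding, measured 15.02 and 12.1 CPM in WT but 9.73 and 9.69 CPM in Trex1-KO, a log2 fold change of -0.48 ± 0.15 at the edge of the threshold (adjusted p = 0.0496, edgeR). That call was absent in 7 of 15 alternatives, namely DESeq2, the fit of both groups alone, and leaving out WT replicate 1 or either replicate of Trex1-KO or SN-011. It was at 6.79 to 7.80 CPM with the inhibitors, without a call. None of the 7 tested bHLH-PAS relatives was called in Trex1-KO against WT (edgeR, with none at an unadjusted p under 0.05). Hif1a, the oxygen-regulated factor that shares Arnt, was called lower with SN-011, at 127 and 128 CPM against 160 and 155 CPM in Trex1-KO (log2 fold change -0.31 ± 0.07, adjusted p = 0.0321). With H151 it was at 164 and 145 CPM, and the difference between the inhibitors did not pass the test (adjusted p = 0.249) but did in 2 of 15 alternatives, the filter at 1 count and leaving out H151 replicate 2. The Hif1a call was absent in 5 of 15 alternatives, which were scaling by total counts and leaving out either replicate of Trex1-KO or SN-011.

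Of 15 coregulators and degradation factors, the acetyltransferase genes Crebbp and Ep300 were called slightly higher in Trex1-KO. None was called lower, beside 9.27% of all genes higher and 7.11% lower. Crebbp went from 63.4 and 65.5 to 76.6 and 79.5 CPM (log2 fold change 0.28 ± 0.08, adjusted p = 0.0393, edgeR), and Ep300 from 225 and 218 to 273 and 248 CPM (0.24 ± 0.07, adjusted p = 0.0353). Neither call was firm. That of Crebbp was absent in 9 of 15 alternatives, namely DESeq2, total counts, the stricter filter, and leaving out any WT, Trex1-KO or SN-011 library. That of Ep300 was absent in 7, namely DESeq2, total counts, and leaving out Trex1-KO replicate 1 or any WT or SN-011 library. Neither was called with either inhibitor.

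The other genes of xenobiotic metabolism were mostly low: 5 of 11 could be tested, and Cyp1a2, Gsta1 and Gsta2 had 0 counts throughout. Xdh, which encodes xanthine dehydrogenase, rose in Trex1-KO from 513 and 562 to 836 and 839 CPM (log2 fold change 0.64 ± 0.06, adjusted p = 3.0e-06, edgeR). Nfe2l2, the regulator of the antioxidant response, rose from 333 and 333 to 425 and 377 CPM (0.27 ± 0.07, adjusted p = 0.0132), a call absent with total counts and without Trex1-KO replicate 1 or either WT replicate. Nqo1, a quinone reductase and common receptor target chosen after its values were seen, was at 0.957 and 2.30 CPM in WT, 1.06 and 1.45 in Trex1-KO, 2.44 and 2.55 with H151 and 1.51 and 1.87 with SN-011. The WT pair alone spanned most of that range, and with 13 to 38 counts per library its change with H151 of 0.98 ± 0.40 was not called (adjusted p = 0.421).

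Of 12 other reported targets 9 were tested, and 4 fell and 1 rose in Trex1-KO against WT, beside 7.11% and 9.27% of all genes, where their median was -0.60. Pdk4, a kinase that restrains pyruvate oxidation, went from 33.9 and 27.0 to 15.8 and 13.5 CPM (log2 fold change -1.06 ± 0.15, adjusted p = 0.000224, edgeR). Socs2, a suppressor of cytokine signalling, went from 8.02 and 7.05 to 4.45 and 2.84 CPM (-1.06 ± 0.23, adjusted p = 0.00588). Neither was called with an inhibitor: Pdk4 was at 14.2 to 18.7 CPM and Socs2 at 3.29 to 4.25 CPM in the 4 treated libraries. Slc7a5, an amino acid transporter gene chosen after its values were seen, fell from 15.02 and 12.4 to 9.66 and 7.32 CPM (-0.70 ± 0.18, adjusted p = 0.016). The calls of Socs2 and Slc7a5 were absent without WT replicate 1 or Trex1-KO replicate 2. Cdkn1a, which encodes the cell cycle inhibitor p21, rose in Trex1-KO from 256 and 237 to 313 and 314 CPM (0.35 ± 0.07, adjusted p = 0.00242), a call absent without WT replicate 2. With H151, where it was the single call among the listed genes in the fit across all libraries, it fell to 238 and 269 CPM (-0.30 ± 0.07, adjusted p = 0.0299). With SN-011 it was at 256 and 264 CPM, with a log2 fold change of -0.27 ± 0.07 (adjusted p = 0.0539) that was called in 7 of 15 alternatives, DESeq2 and the exact test included. Lpcat2, a lysophospholipid acyltransferase gene, fell with SN-011 from 136 and 139 to 105 and 96.5 CPM (-0.44 ± 0.07, adjusted p = 0.00149).

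The receptor takes many of its natural ligands from tryptophan breakdown. Of 14 genes of this supply 8 could be tested, none rose and 3 fell in Trex1-KO, beside 9.27% and 7.11% of all genes, while Ido1, Tph1 and Aadat had 0 counts throughout. Kynu, which encodes kynureninase, was low at 23 and 27 counts in WT and 11 and 6 in Trex1-KO (log2 fold change -1.54 ± 0.46, adjusted p = 0.0356, edgeR). That call was absent in 7 of 15 alternatives, namely DESeq2, the stricter filter, and leaving out Trex1-KO replicate 2 or any WT or SN-011 library. Kyat1, a kynurenine aminotransferase gene, fell from 9.57 and 9.22 to 5.28 and 5.94 CPM (-0.74 ± 0.17, adjusted p = 0.00933), a call absent without WT replicate 1 or Trex1-KO replicate 1. Kmo, the kynurenine monooxygenase gene, the remaining one of the 3 and chosen after its values were seen, fell from 12.2 and 14.98 to 8.30 and 8.57 CPM (-0.69 ± 0.16, adjusted p = 0.00683), a call absent without WT replicate 2. No gene of this list was called with an inhibitor (edgeR; 1 was higher with H151 and none with SN-011 at an unadjusted p under 0.05).

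Immune genes that have been tied to the receptor in myeloid cells included the largest rises of the 7 lists in Trex1-KO. Of 11 tested, 4 rose and 1 fell, beside 9.27% and 7.11% of all genes. Ccr2, the receptor that draws monocytes to tissue, rose from 20.3 and 17.3 to 78.4 and 76.3 CPM (log2 fold change 2.04 ± 0.10, adjusted p = 8.2e-09, edgeR) and remained at 64.5 to 78.1 CPM with the inhibitors. Tnf, the inflammatory cytokine gene, rose from 7.14 and 2.44 to 18.5 and 16.2 CPM (1.87 ± 0.30, adjusted p = 0.000575). It fell to 6.46 and 5.27 CPM with SN-011 (-1.54 ± 0.29, adjusted p = 0.00943), and was at 7.74 and 8.26 CPM with H151 (-1.11 ± 0.28, adjusted p = 0.0659). The SN-011 call was absent in DESeq2 and without either SN-011 replicate, and Tnf was called lower with H151 in 6 of 15 alternatives: the exact test, the filter at 1 count, the fit of both groups alone, the replicate block, and leaving out either WT replicate. Cd274, which encodes the checkpoint ligand PD-L1, rose from 29.3 and 28.8 to 70.9 and 67.9 CPM (1.26 ± 0.10, adjusted p = 1.4e-06) and fell to 37.9 and 45.3 CPM with SN-011 (-0.75 ± 0.10, adjusted p = 0.000704). With H151 it was at 48.8 and 58.1 CPM (-0.37 ± 0.10, adjusted p = 0.0853), called lower in 4 of 15 alternatives, the exact test among them. The difference between the inhibitors was not called for Tnf (adjusted p = 0.715) or Cd274 (adjusted p = 0.319). Vegfa, the angiogenic factor gene, fell slightly in Trex1-KO (-0.23 ± 0.07, adjusted p = 0.0316), a call absent without WT replicate 2, SN-011 replicate 1 or either Trex1-KO replicate. Il10, the remaining one of the 4 and chosen after its values were seen, rose from 3.02 and 2.91 to 7.55 and 6.86 CPM (1.28 ± 0.21, adjusted p = 0.000877).

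**Figure D4:**
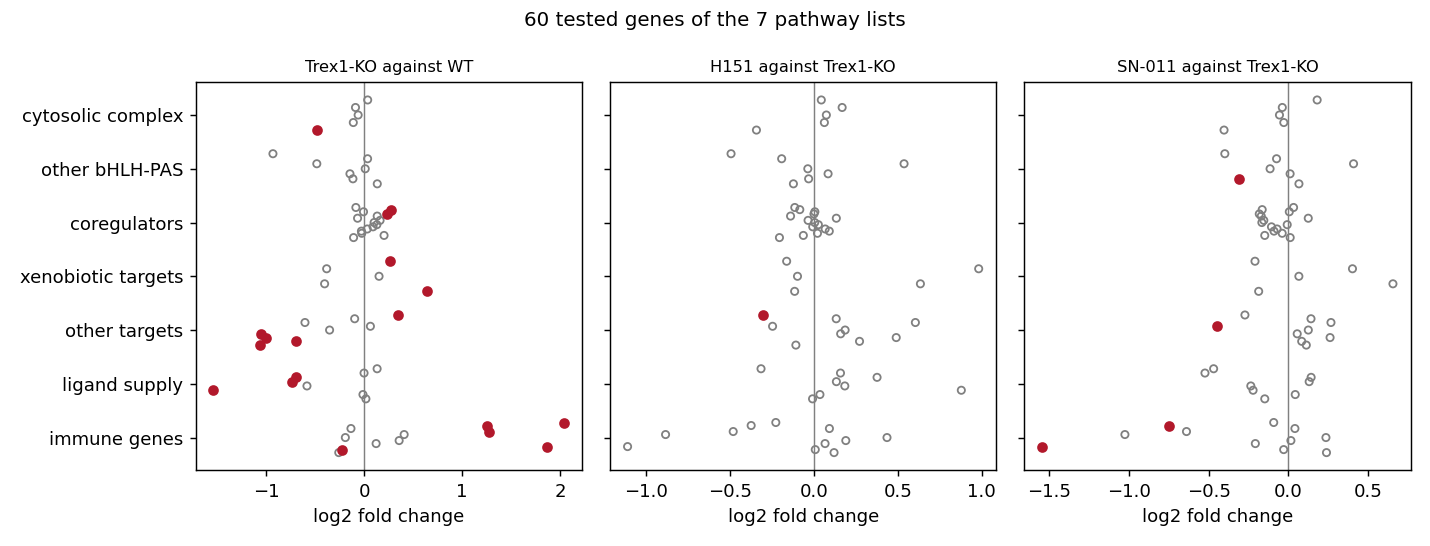
Log2 fold change (x axis) of the 60 tested genes of the 7 pathway lists (rows) in 3 contrasts, 1 point per gene, filled red where the gene passed an adjusted p of 0.05. In Trex1-KO against WT 18 points are filled, in H151 against Trex1-KO 1 (Cdkn1a) and in SN-011 against Trex1-KO 4, all lower.

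Genes with a pattern like that of Ahrr and Cyp1b1 were sought among 10655 genes by Pearson's correlation over the 8 libraries with the mean of their standardized log2 CPM, as a description with no p. The genes were ranked from many, over 8 libraries that fall into 4 groups. Tsku, which encodes the secreted proteoglycan tsukushi, came first (r = 0.98). It measured 14.9 and 12.9 CPM in WT, 9.88 and 8.44 in Trex1-KO, 15.2 and 14.4 with H151, and 9.60 and 7.05 with SN-011. Adam19, a membrane metalloprotease gene (r = 0.93), was at 42.3 and 42.6, 28.9 and 31.1, 43.7 and 40.3, and 26.7 and 26.9 CPM in the same order. In both, the H151 libraries overlapped WT, and the SN-011 libraries overlapped Trex1-KO for Tsku and lay below it for Adam19. The log2 fold change with H151 was 0.69 ± 0.17 for Tsku and 0.48 ± 0.09 for Adam19, and 0.15 to 0.31 for the other 6, Lbh, Tmem50b, Mfsd1, Nfil3, Ruvbl2 and Slc48a1 (r = 0.92 to 0.96).

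**Figure D5:**
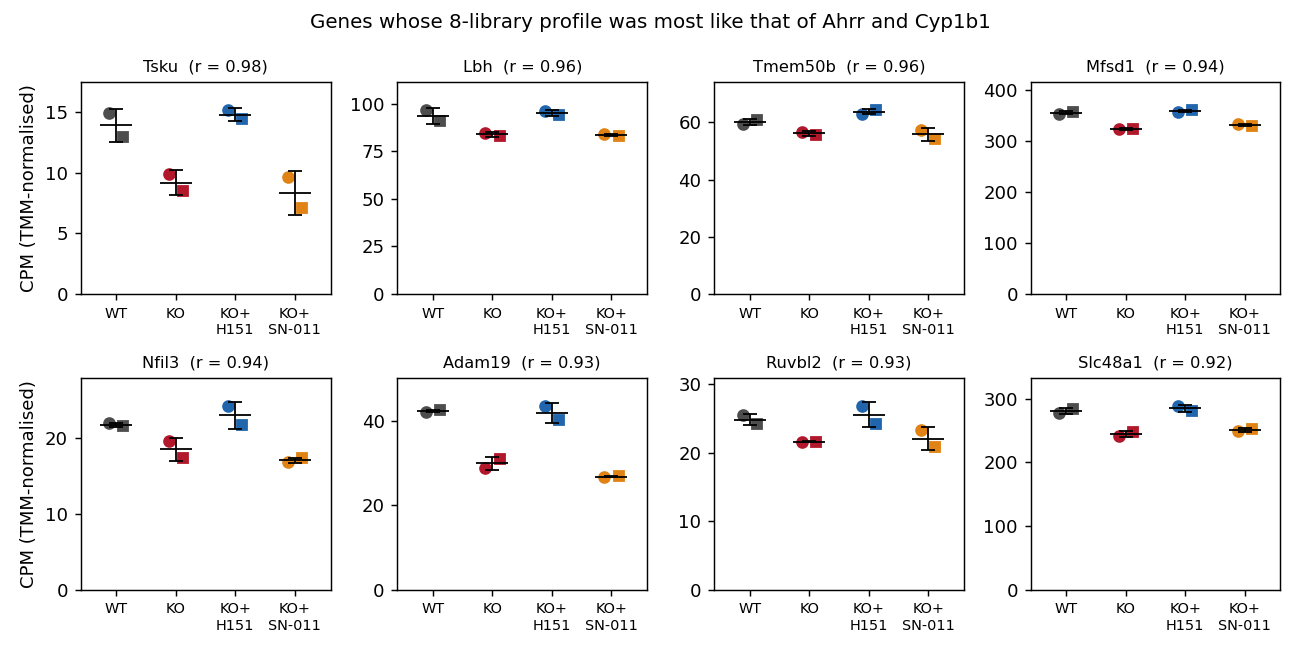
CPM (y axis, from 0) in each library, by group, of the 8 genes with the highest Pearson's r to the Ahrr and Cyp1b1 profile (circles replicate 1, squares replicate 2, mean and SD, n = 2). Tsku and Adam19 show the widest steps relative to their own level, with H151 overlapping WT.

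Ahr was most like Svep1 (r = 0.99), an extracellular matrix gene at 10.2 and 9.76 CPM in WT and 2.28 to 4.15 CPM in the 6 knockout libraries, followed by Lpcat1 and Abca6 (r = 0.98 each). The genes most like Tiparp were Csf2rb2 (r = 0.98), whose reads can be confused with those of its near-identical neighbour Csf2rb, and C5ar1 and Abhd2 (r = 0.96 each). C5ar1, the receptor for the complement fragment C5a, measured 325 and 360 CPM in WT, 442 and 455 in Trex1-KO, 513 and 489 with H151, and 378 and 367 with SN-011, in the order of groups seen for Tiparp. These likenesses over 8 libraries say nothing of shared control.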

How the data were processed

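RNA of macrophages grown from mouse marrow was sequenced in 8 libraries, 2 per group. The deposited values are raw counts of read pairs per Ensembl gene. According to the study's methods, the authors trimmed reads with Trimmomatic, aligned them with hisat2 and counted uniquely mapped pairs with featureCounts; the submitters' processing notes name HISAT2, HTSeq and mm10. The methods describe a strand-specific preparation. Versions, annotation release and whether counting used the strand are not given in the sources used here, so overlapping and antisense genes may share or lose reads.

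Symbols and positions came from GENCODE M21 (GRCm38): 54495 of 54532 identifiers matched and 37 did not. Counts were fitted in R 4.3.3 with edgeR 4.0.16 (filterByExpr, min.count 10 and min.total.count 15, TMM, glmQLFit, glmQLFTest), all 8 libraries in 1 fit with 1 mean per group, in 4 contrasts, two-sided, with Benjamini-Hochberg adjustment over 14591 genes at 0.05. DESeq2 1.42.0, the edgeR exact test, other filters and scaling, the 2 groups alone, a replicate block and leaving out each library were alternatives.

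The genes of the axis and all lists were chosen with earlier results of these data known. From each pathway list and contrast the text names the strongest calls, at most 2 upward and 2 downward, and the genes nearest in profile whose mean log2 CPM reached 2. Nqo1, Slc7a5, Kmo and Il10 were added to these after their values were seen. CPM is the count scaled to the normalized library total, on edgeR's usual base. SD and SE rest on 2 libraries per group, and the floor of 3 counts covers counting error only. Promoters came from RefSeq. Values of 1 listed gene are not reported here.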

Additional observations from a re-analysis of the deposited data

How the results depend on the processing

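Over 15 alternatives, the Ahrr change with H151 stayed between 1.00 and 1.14 and that of Cyp1b1 between 0.80 and 1.08 on the log2 scale, and no value of a gene of the axis that passed the test changed direction. Leaving out 1 library at a time, the Ahr change in Trex1-KO ranged from -0.62 to -0.55, the Ahrr change with H151 from 1.00 to 1.14, and the genes called from 1556 to 2651 in Trex1-KO against WT (2390 with all libraries), from 231 to 357 with H151 against Trex1-KO (325), from 131 to 493 with SN-011 against Trex1-KO (340) and from 2 to 291 in SN-011 against H151 (23). The lowest counts with SN-011 came without SN-011 replicate 1, and the 291 without H151 replicate 2. Testing every gene with at least 1 count gave 525 calls with H151, 679 with SN-011 and 266 between the inhibitors. The edgeR exact test gave 569 with SN-011 and 74 between the inhibitors, where DESeq2 gave 38. The cause was not tested. The study gives the libraries of a group as independent experiments, but neither it nor the labels say that a number marks the same experiment in each group, so the numbers were not taken to pair the libraries. Deviations of same-numbered libraries correlated at 0.19 between Trex1-KO and H151 and at -0.02 to 0.06 between the other groups. With the replicate block, 41 genes were called between the inhibitors, 2611 in Trex1-KO against WT, 404 with H151 and 422 with SN-011, and the listed pathway genes called with H151 numbered 5 (1 higher, 4 lower) in place of 1. Cyp1a1, at 0 counts, gave no value under any setting. Depth limits genes of few reads, such as Kynu at 5 to 27 counts per library.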
